A study of Zea mays with 9 samples.

Results

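The late-loss genes are 87 of the 38703 maize genes in the deposited table. Their chromatin coverage was lower at 12 h of tunicamycin than at both 0 h and 6 h. As a set, the genes had about equal coverage at 0 h and 6 h, though single genes differed. They were selected by their values: each library was scaled to a common total, and a gene was taken if its mean over the 9 libraries lay from 730 to under 2000, if all 3 values at 12 h lay below all 6 values at 0 h and 6 h, and if the 0 h mean and the 6 h mean were each at least 1.5 times the 12 h mean. Coverage is in read bases summed per gene, and low values piled up on multiples of 73, so 73 was taken as the coverage of 1 full read and the lower bound of 730 as that of 10 reads. All 9 libraries entered the choice, so the low values at 12 h describe how the genes were selected and are not a finding.

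ATAC-seq was used to map open chromatin: a transposase places sequencing adapters where DNA is exposed, here in nuclei of flash-frozen roots from seedlings of the inbred line B73. The groups were 0 h, 6 h and 12 h with the agent tunicamycin, which the labels give for all 3 times, 0 h included, as 5 mg per ml in DMSO without saying whether this was a stock or the final dose. Each time had 3 libraries, described by the submitters as biological replicates. A p-value below rests on the scatter of libraries within times, pooled over the 3 times and moderated across genes, and on nothing wider. Libraries from untreated seedlings at 6 h or 12 h were not analysed here, so time under the drug and time itself cannot be told apart. The labels name both root and protoplasts as the material. Root markers could not settle this, because accessibility measures no transcript level. Each library pooled nuclei of many cells, so fewer cells with an open site and a less open site in each cell cannot be told apart.

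Tunicamycin blocks the enzyme step that starts N-linked glycosylation, and unglycosylated proteins then misfold in the endoplasmic reticulum. Plants answer with the unfolded protein response, in which IRE1, a kinase and ribonuclease of the endoplasmic reticulum membrane named in the series title, cuts the mRNA of a bZIP transcription factor and later degrades other mRNAs. Genes for chaperones, disulfide isomerases and protein degradation are induced early, and stress that lasts can lead to cell death. Coverage at a gene reports how open its DNA is, which often but not always goes with its transcription.

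The files give gene identifiers without names. None of the 38703 identifiers matched the RefSeq table of the Zm-B73-REFERENCE-NAM-5.0 assembly (0 matched, against 49888 RefSeq genes). The late-loss genes are therefore given by identifier, with no function, position or sequence, and how many of them are chaperones, glycosylation enzymes or cell death genes was not determined here.

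Across the 87 genes, the 12 h mean was 38.0% to 65.6% of the mean of the 0 h and 6 h libraries, with a median of 58.4%. The median late-loss gene had a mean coverage of 1236 at 0 h, 1260.3 at 6 h and 718 at 12 h. Before scaling, the median number of reads summed over the 3 libraries of a time was 54.1 at 0 h, 46.1 at 6 h and 30.7 at 12 h. These read numbers also carry the depth of the libraries, which was lowest at 6 h. Together the 87 genes held 0.321% ± 0.0052 of all coverage at 0 h, 0.323% ± 0.00279 at 6 h and 0.185% ± 0.0024 at 12 h (SD, n = 3 each). The genes lay close to the ratio bound: the smaller of the ratios was under 1.6 in 35 genes and reached 2 in 5. No late-loss gene was listed at 0 in any library.

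Each of the 12 h libraries was about equally often the highest or the lowest of its time. The highest of the 3 values at 12 h was that of replicate 1 in 25 genes, of replicate 2 in 31 and of replicate 3 in 31, and the lowest in 28, 28 and 31. The lowest of the 6 values at 0 h and 6 h came from 0 h libraries in 18, 17 and 13 genes and from 6 h libraries in 12, 11 and 16 genes, for replicates 1, 2 and 3. The 6 h libraries were the shallowest, with totals of 28.9 to 33.1 megabases, against 35.0 to 39.1 at 0 h and 35.8 to 36.8 at 12 h. In reads of 73 bases the 9 totals ran from 396306 to 536001.

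The gene with the largest ratio to its 12 h mean was Zm00001d039908. Its coverage was 883, 911 and 1107 at 0 h, 923, 1205 and 841 at 6 h, and 132, 608 and 374 at 12 h. The 12 h libraries of Zm00001d039908 held 15.8 reads in all, and replicate 2 stood highest among them. Zm00001d008909 had 1033, 862 and 924 at 0 h, 1010.4, 686 and 1027 at 6 h, and 518, 244 and 362 at 12 h. Here the 12 h values lay well under the other 6, and only 6 h replicate 2 came near them. In Zm00001d007491 the 6 h libraries were almost equal, at 902, 897 and 900.2, beside 1055, 1092 and 884 at 0 h and 367, 562 and 285 at 12 h. The distance between its lowest earlier value and its highest 12 h value was 322.

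**Figure D1:**
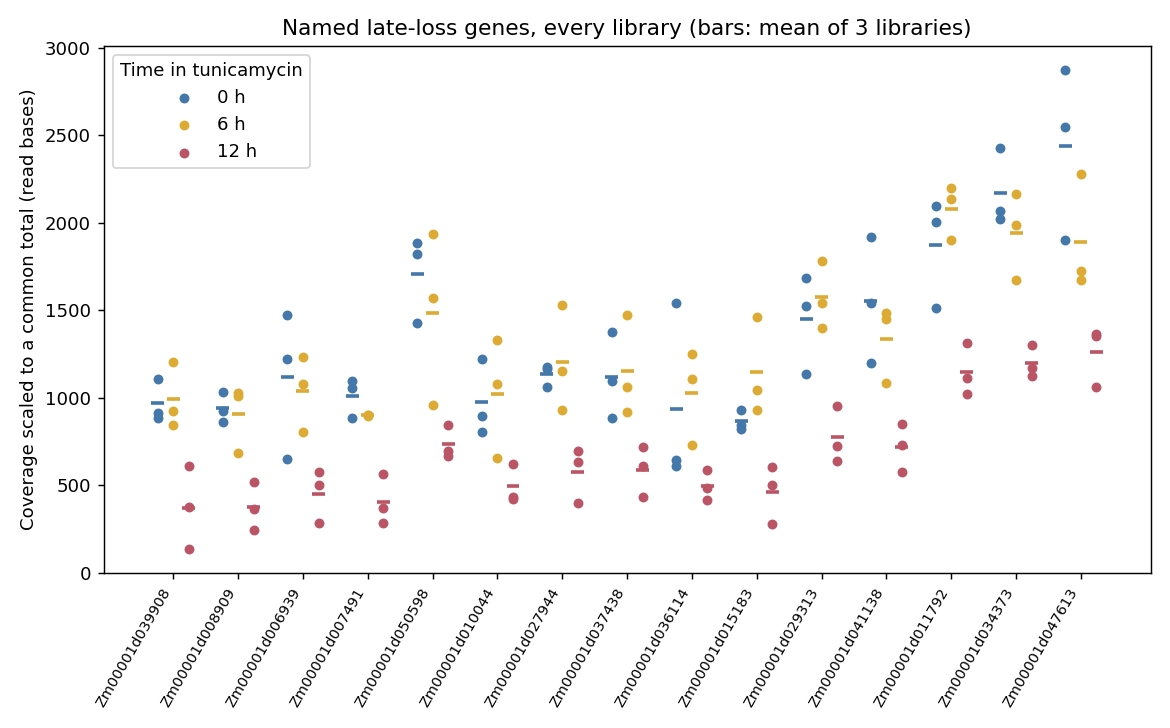
Coverage scaled to a common total, in read bases, of the 15 named late-loss genes in every library at 0 h, 6 h and 12 h; points are libraries and bars the mean of 3. The genes are ordered by the smaller of their ratios to the 12 h mean, from Zm00001d039908 with a 12 h mean of 371 to Zm00001d047613 with 1258, and the 12 h points lie lowest in each, as the selection requires.

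Some genes met the rule in spite of wide spread at the earlier times. Zm00001d006939 had 651, 1474 and 1221 at 0 h, 804, 1079 and 1233 at 6 h, and 574, 283 and 498 at 12 h. In Zm00001d006939, 0 h replicate 1 stood only 77.8 above the highest 12 h value. Zm00001d036114 had 1542, 610 and 646 at 0 h, 728, 1109 and 1248 at 6 h, and 584, 486 and 414 at 12 h. The 0 h mean of Zm00001d036114 rested on replicate 1, since its other 0 h libraries, at 610 and 646, lay just above the highest 12 h value of 584.

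Other genes had high coverage and smaller ratios. Zm00001d034373 had 2019, 2070 and 2429 at 0 h, 2165, 1675 and 1986 at 6 h, and 1304, 1172 and 1126 at 12 h. Zm00001d011792 had 2005, 1514 and 2097 at 0 h, 2197, 2139 and 1901 at 6 h, and 1022, 1312 and 1114 at 12 h. The highest 12 h value lay 371 under the lowest earlier one in Zm00001d034373 and 202 under it in Zm00001d011792. Zm00001d047613 had means of 2442 ± 494 at 0 h, 1891 ± 337 at 6 h and 1258 ± 170 at 12 h (SD, n = 3 each), with 0 h replicate 3 at 1903 inside the 6 h range of 1672 to 2279. It stood just inside the ratio bound at 1.503.

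Zm00001d015183 differed in shape, its 6 h mean being higher than its 0 h mean. It had 823, 842 and 931 at 0 h, 1046, 1461 and 928 at 6 h, and 276, 498 and 605 at 12 h. The 0 h and 6 h values of Zm00001d015183 overlapped only at 928 and 931, and limma, a linear model with variance shared across genes, gave its log2 change at 6 h against 0 h as 0.35 (SE 0.32) with an adjusted p of 0.916. The remaining named genes by ratio or p, Zm00001d010044, Zm00001d027944, Zm00001d037438, Zm00001d029313 and Zm00001d041138, had 12 h means of 492, 575, 585, 772 and 718.

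Late-loss genes stood next to each other in the table in 2 places. No such count was made for other sets of genes, so whether 2 is many or few was not determined. Zm00001d050598 and Zm00001d050599 follow each other. Zm00001d050598 had 1425, 1821 and 1884 at 0 h, 1933, 959 and 1567 at 6 h, and 693, 843 and 667 at 12 h. Zm00001d050599 had 800.3, 1348 and 1559 at 0 h, 1716, 1578 and 1239 at 6 h, and 672, 768 and 711 at 12 h. Their deposited values were equal in 0 of 9 libraries, and the library that was lowest before 12 h was 6 h replicate 2 in one and 0 h replicate 1 in the other.

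The second place held Zm00001d028630, Zm00001d028632 and Zm00001d028633, with Zm00001d028631 between them not selected. Zm00001d028630 had 2177, 1433 and 1103 at 0 h, 2028, 1292 and 1145 at 6 h, and 970.4, 843 and 1080.0 at 12 h. Zm00001d028632 had 617, 888 and 941 at 0 h, 1702, 602 and 664 at 6 h, and 536, 589 and 431 at 12 h, so its 6 h mean rested on replicate 1. Zm00001d028633 had 1246, 1363 and 1211 at 0 h, 1034, 1100.4 and 1406 at 6 h, and 712, 509 and 1011 at 12 h. All 3 cleared the separation narrowly, by 23.2, 13.0 and 22.5. The gene between them, Zm00001d028631, had 910.0, 1010 and 966 at 0 h, 1148, 1027 and 613 at 6 h, and 468, 780.3 and 1217 at 12 h, where the 12 h values spread across the whole range. Whether windows of neighbouring identifiers overlap was not tested.

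Rows beside the late-loss genes were read as values the selection did not use directly. Whether neighbouring rows share reads was not tested, so they may not be independent of the selection. For the row directly after a late-loss gene, the median log2 difference of 12 h from the mean of 0 h and 6 h was -0.09 over the 85 genes that were not late-loss genes themselves, and 52 of them (61.2%) were lower at 12 h. For the row directly before, the median was -0.0049 and 44 of 85 (51.8%) were lower. At 2 to 5 rows on either side the share lower ran from 44.2% to 52.3%, beside 47.8% of all genes and 49.8% of genes in the same coverage range. The excess after the gene was thus not matched before it, and no test was made of it.

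At the bounds of the rule, genes just inside and just outside were much alike. The 3 genes nearest inside the ratio bound had smaller ratios of at most 1.503, and the 3 nearest outside had 1.481 to 1.487. By separation, the nearest genes inside cleared it by 0.379, 8.25 and 9.50 read bases, far less than 1 read, and the nearest outside missed it by a distance of -2.56, -12.9 and -18.4. For these genes, 1 read more or less in a 12 h library is enough to cross a bound.

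**Figure D2:**
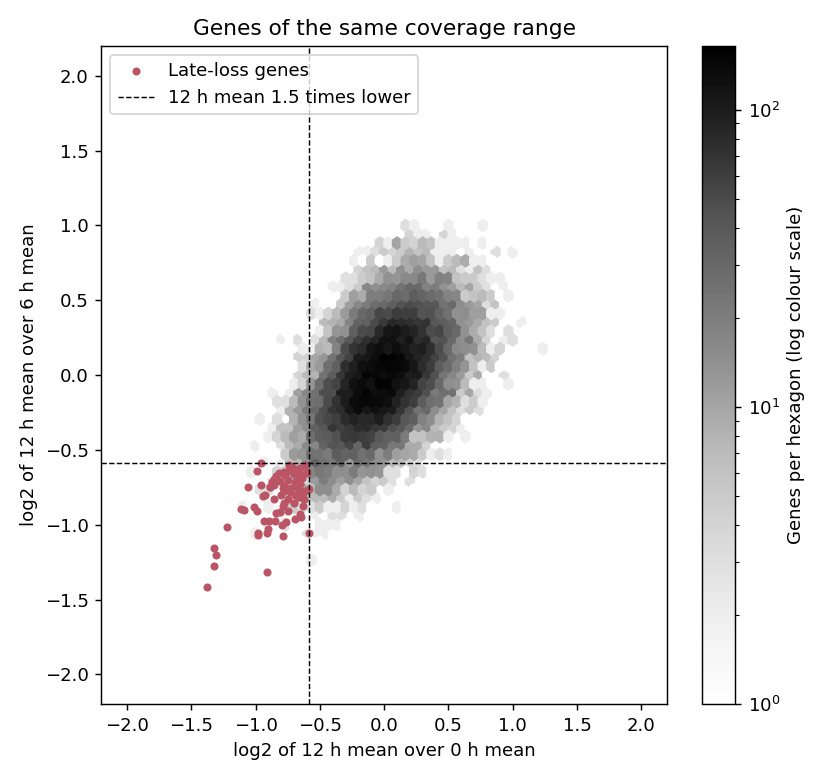
log2 of the 12 h mean over the 0 h mean (horizontal) and over the 6 h mean (vertical) for the 19836 genes with a mean of 730 to under 2000; grey hexagons count genes, red points are the 87 late-loss genes and dashed lines mark a 12 h mean 1.5 times lower. The late-loss genes lie beyond both lines, a corner that holds 184 genes in all, and the other genes there lack the separation of all 3 values at 12 h.

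The same conditions were met more often among genes with fewer reads. They held in 124 of 17160 genes with a mean under 730 (0.723%), in 36 of 7521 from 730 to under 1000 (0.479%), in 51 of 12315 from 1000 to under 2000 (0.414%) and in 1 of 1707 at 2000 and above (0.0586%). The late-loss genes made up 0.439% of the 19836 genes of their coverage range. All 3 values at 12 h were lowest in 296 genes of that range (1.49%), and both ratios reached the bound in 184 (0.928%). No late-loss gene was among the 165 genes whose coverage was identical to that of another gene.

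Changes were fitted with limma to log2(scaled coverage + 73) over all 38703 genes. For 12 h against 0 h and 6 h together, the median log2 change of the late-loss genes was -0.73, against 0.00 in their coverage range and 0.02 in all genes, a difference fixed by the selection. Limma called 2 genes at an adjusted p under 0.05 (0.00517% of those tested), 1 lower and 1 higher, and neither was a late-loss gene. They are named after their values were seen. Zm00001d051105 had a log2 change of -2.08 (limma adjusted p = 0.0159) and, with a mean of 467, lay under the lower bound of the rule. Zm00001d019241 had 1.17 (limma adjusted p = 0.0159). Neither call held in every alternative. The call of Zm00001d051105 was lost without 0 h replicate 2, 0 h replicate 3, 6 h replicate 2, 12 h replicate 1 or 12 h replicate 3 and with voom weights (limma adjusted p from 0.107 to 0.331). That of Zm00001d019241 was lost without 0 h replicate 3 or any of the 3 libraries at 12 h (limma adjusted p from 0.136 to 0.319). At an unadjusted p under 0.05, 87 of the 87 late-loss genes were lower, beside 1195 of all genes (3.09%), from which nothing can be read because the selection used these values. Zm00001d039908 had the lowest adjusted p of them, 0.261 in limma, with a log2 change of -1.40 (SE 0.31). Without 12 h replicate 2, whose value of 608 was the highest at that time, its log2 change was -1.79 and its limma adjusted p 0.0309. Over the alternatives its adjusted p ran from 0.0309 to 0.807.

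In the separate comparisons, limma called 0 of 38703 genes for 12 h against 0 h (0.0%, with 2082 genes at an unadjusted p under 0.05) and 0 for 12 h against 6 h (0.0%, with 2606). With voom weights it also called 0 in each, with 2429 and 2430 genes at the unadjusted level. Both comparisons share the 12 h libraries. The late-loss genes had a median log2 change of -0.72 against 0 h (range -1.38 to -0.53) and -0.73 against 6 h (range -1.41 to -0.55), with a median SE of 0.28 in each. Their limma adjusted p ran from 0.388 to 0.943 against 0 h and from 0.412 to 0.790 against 6 h. Of the 87, 83 were lower at an unadjusted p under 0.05 in limma against 0 h, beside 2.48% of all genes, and 84 against 6 h, beside 3.24%. The selection used both differences, so nothing can be read from these changes or counts either.

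Between 6 h and 0 h, for which the selection set no direction, the late-loss genes did not lean to either side. The 6 h mean was above the 0 h mean in 46 and below it in 41. Their median log2 change was 0.03 in limma (range -0.35 to 0.43), against -0.01 in genes of the same coverage range. Limma called 0 of 38703 genes (0.0%) and 0 late-loss genes at an adjusted p under 0.05, and at an unadjusted p under 0.05 it gave 2450 genes, or 2332 with voom weights, which also called 0; 0 of the 2450 were late-loss genes, beside 3.22% of all genes lower and 3.11% higher. Every 6 h value lay above every 0 h value in 1 late-loss gene, beside 5.36% of the genes in the range, and below in 1, beside 5.73%. Requiring both times to be high narrows this difference, so the close match of 0 h and 6 h partly follows from the rule.

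The count of 87 was set beside the counts from relabelled columns, in which any 3 of the 9 columns take the place of 12 h and the other 6 are divided into 3 and 3. The 839 other labellings gave 38 to 108 genes, with a median of 65. Of these, 794 gave fewer than 87 and 45 gave 87 or more. When the 12 h columns stayed the low ones, the 10 divisions of the 0 h and 6 h columns gave 78 to 93. The true labelling is 1 of these 10, and the rest of them are among the 839. Where 1 library of each time stood in for 12 h, in 270 labellings, the counts ran from 38 to 82 with a median of 60. The same rule gave 102 genes with 6 h as the low time and 76 with 0 h, and its mirror image, a gain at 12 h alone, gave 60.

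**Figure D3:**
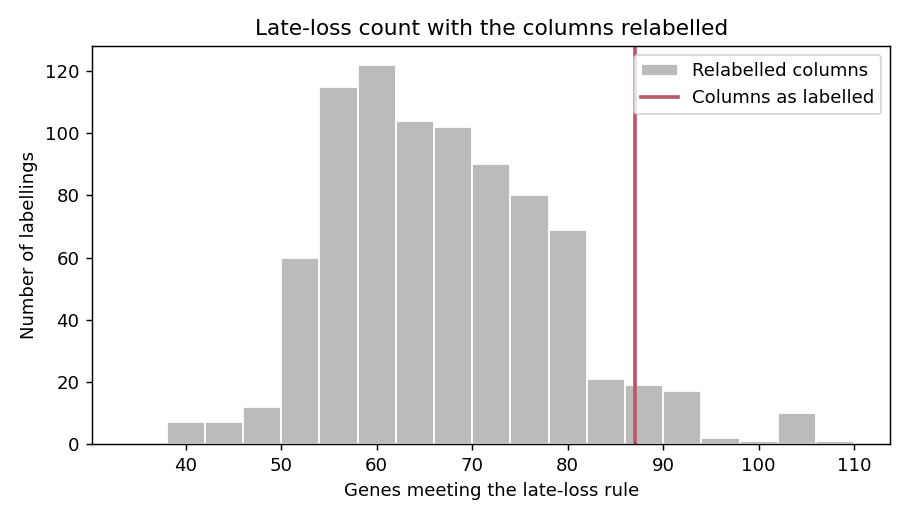
Number of genes meeting the late-loss rule (horizontal) in each labelling of the 9 columns; bars count the 839 other labellings and the red line marks the 87 genes with the columns as labelled. Labelling columns at will gave 38 to 108 genes, and the count with the true labels lies in the upper part of that range without exceeding it.

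To read the loss in libraries that had not selected the genes, the rule was applied to 2 libraries per time and the change was measured in the third of each time, for all 27 choices. With fewer libraries the rule is easier to meet, and 301 to 383 genes were selected (median 333), of which 58 to 67 were among the 87. In the libraries used, the selected genes had a median log2 difference of -0.73 for 12 h minus 0 h and -0.76 for 12 h minus 6 h, or 39.7% and 40.8% lower coverage. In the held-out libraries the median difference was -0.05 for 12 h minus 0 h (range -0.11 to 0.00 over the choices) and -0.07 for 12 h minus 6 h (range -0.14 to -0.03), or 3.16% and 4.91% lower. Genes of the whole coverage range had -0.01 and 0.00 in the same libraries. The selected genes lay below the range's median in 23 of 27 choices against 0 h and in 27 of 27 against 6 h. The choices reuse the same libraries, so these are not 27 separate readings, and most genes read were not among the 87.

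The held-out 12 h value was below both held-out earlier values in a median of 37.9% of the selected genes (range 34.6% to 43.3%), and in 33.5% of all genes of the range (33.0% to 34.2%). The share was higher in the selected genes in 27 of 27 choices. The choices share libraries and are not independent, so no p-value is given. Among the 87 genes, 16 were selected again in all 27 choices, and the median gene in 18. In all, 2048 genes were selected in at least 1 choice.

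**Figure D4:**
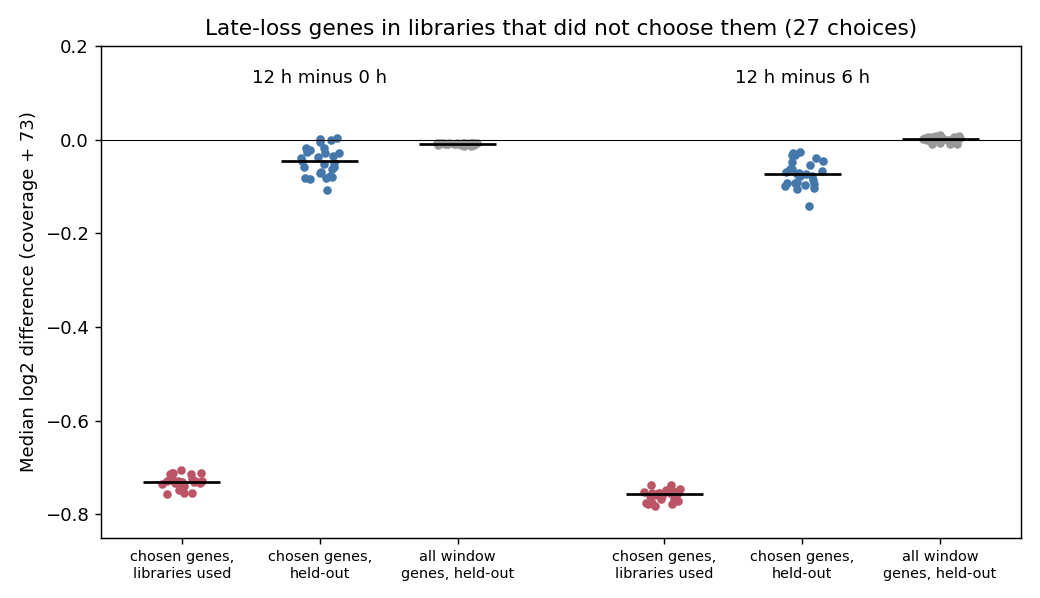
Median log2 difference of coverage plus 73 for 12 h minus 0 h (left) and 12 h minus 6 h (right), 1 point per choice of libraries, 27 choices, black bars the median over choices. Red points are the selected genes in the libraries that selected them, near -0.73 and -0.76, blue points the same genes in held-out libraries, near -0.05 and -0.07, and grey points all genes of the coverage range in the held-out libraries, near 0.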

How the data were processed

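The authors deposited 1 table of coverage signal per gene, as whole numbers for 38703 identifiers in 9 ATAC-seq libraries, with 0 columns of no sample. Cutadapt 1.11, Bowtie2 2.2.6, MACS2 and DESeq2 are listed without roles, per the submitters' processing notes. Not given in the sources used here are the genome build, the window per gene, any shift for the transposase and any duplicate filter, and each could change the values. Between 16.6% and 22.6% of values above 0 were multiples of 73, where an even spread gives 1.37%, so the deposited signal was read as read bases and not as counts. Precision is limited by depth, and duplicates cannot be told from separate molecules.

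Columns were divided by their totals and multiplied by the mean total. Log2(coverage + 73) of all 9 libraries was fitted in limma 3.58.1 (R 4.3.3) with trended, robust moderation, two-sided p-values and Benjamini-Hochberg adjustment over all genes at 0.05. The pseudocount is the coverage of 1 read, and a fold change on this scale understates that of low genes. Named genes were the 10 with the largest smaller ratio and the 10 with the lowest limma p for 12 h against both earlier times, 15 in all, and the genes beside each other in the table, added after their values were seen. The code of the rule and of the fit was run on simulated data with planted losses. Noise and fold changes there were not matched to these data, so those runs say nothing about sensitivity here. The late-loss genes and the lists were chosen with earlier results of these data known. Pathway lists and promoter motifs, which need gene names or sequences, were not run. Alternatives are given in the closing section. Python 3.11.15 and R were used.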

Additional observations from a re-analysis of the deposited data

How the results depend on the processing

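The late-loss count was 137 with a minimum mean of 500, 51 with 1000, 248 with the looser ratio bound and 5 with a ratio of 2, each a looser or stricter rule by construction. It was 89 under trimmed-mean scaling, 88 under median-of-ratios scaling and 88 with no upper bound, and these 3 included the 87. With any single library removed it was 103 to 273, with 70 to 79 of the 87 among them. It was highest without a 12 h library, at 273, 235 and 243 for replicates 1, 2 and 3, since fewer values then have to be lowest. In held-out libraries the median log2 difference was -0.0889 (12 h minus 0 h) and -0.113 (12 h minus 6 h) with a minimum mean of 1000. With a ratio of 2, where the median choice held 26 genes, it was -0.0581 for 12 h minus 0 h (range -0.327 to 0.216). For 12 h minus 6 h it was then -0.155 (range -0.444 to 0.091). With any single library kept in the choosing set it was between -0.0607 and -0.0317 (12 h minus 0 h) and between -0.0827 and -0.0658 (12 h minus 6 h). Limma called 1 gene for 12 h against both earlier times with only means of 730 or more, where Zm00001d051105 was not tested. It called 1 with voom weights, where Zm00001d051105 had a limma adjusted p of 0.331. With each library removed in turn, the calls for 12 h against both earlier times ran from 0 to 2. Those for 12 h against 6 h and for 6 h against 0 h also ran from 0 to 2, and for 12 h against 0 h they stayed at 0. The calls for 12 h against both earlier times were 0 without 0 h replicate 3, 12 h replicate 1 or 12 h replicate 3, and 1 without 6 h replicate 2. The 2 calls for 12 h against 6 h came without 6 h replicate 2, and the 2 for 6 h against 0 h without 6 h replicate 1. The cause of these changes was not tested. The 15 named genes had 225 log2 changes under alternatives: 224 lower and uncalled, and 1 called, Zm00001d039908 without 12 h replicate 2. Selection used the same libraries, so the direction tests nothing.

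With the replicate number as a block, limma called 1 gene for 6 h against 0 h, not a late-loss gene, and its other counts stayed the same. Setting each 12 h library only against the earlier libraries of its own number, a paired reading of the rule, gave 134 genes. Same-numbered libraries of different times had correlations of -0.0139 to 0.0131 in their deviations, so the numbers pair nothing that these values show. At 12 h the median late-loss gene held 30.7 reads over 3 libraries, which limits what any single gene can show.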
